A study of Drosophila melanogaster with 2 samples.

Results

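The tricellular junction genes Gli, bark and M6 are described here in the posterior midgut of wild-type Drosophila melanogaster. They were chosen by name, as the genes known to encode membrane proteins of the tricellular junction, and together they make up 3 of the 13815 genes and 8 of the 23902 transcripts used. Gli has 5 of these transcripts, M6 has 2 and bark, which the authors' transcript table lists under its older name CG3921, has 1. Poly(A) RNA was taken from pooled posterior midguts of Oregon R females, wild type in genotype and kept at 25 ºC, at 45 days and at 5 days of age, and the labels give 3 biological replicates for each age. The deposited table calls 3 libraries treatment and 3 libraries control, but neither it nor the labels say which age these are. A value higher in treatment would be higher at 45 days if the control flies were the younger ones, which is not stated.

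A tricellular junction is the point at which the corners of neighbouring epithelial cells meet, where the belt-like septate junctions that seal the spaces between pairs of cells come to an end and a separate plug of membrane proteins closes the remaining channel. Gli encodes Gliotactin, a transmembrane protein whose extracellular part resembles a cholinesterase without its activity. The gene bark encodes Bark beetle, also called Anakonda, a very large transmembrane protein with a long repetitive extracellular part that is needed to bring Gliotactin to the corner, and M6 encodes the fly member of the proteolipid protein family, which spans the membrane several times and sits at the corner together with Anakonda. In the midgut epithelium the septate junctions that meet at these corners are of the smooth type.

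The treatment libraries held 18001957, 9581964 and 11050821 reads over genes, and the control libraries 12146648, 16739546 and 15623828. Levels are given as CPM, reads scaled to a common library size, with scaling by the trimmed mean of M-values (TMM), and the most-read transcript stands for each gene. Of 8137 genes tested with edgeR's quasi-likelihood test, 49.2% passed an adjusted p of 0.05, with 25.0% higher and 24.1% lower in treatment. For 28.4% of the genes tested, all 3 treatment libraries lay above all 3 control libraries. These shares are the background for the counts of junction genes and of cell type markers that follow. Both the 3 genes and the lists were picked with earlier results of these data known, so the counts are described without a test.

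All 3 tricellular junction genes rose, against that background of 25.0%, and in each of them every treatment library lay above every control library, against 28.4%. The rises were small: 1.33-fold for Gli, 1.19-fold for bark and 1.17-fold for M6. The tissue was sequenced in bulk, so that more cells expressing these genes and more RNA per cell cannot be told apart. The 3 genes summed to between 280.7 and 292.6 CPM in the treatment libraries and to between 219.7 and 239.4 CPM in the control libraries.

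Gli had 2853, 1461 and 1734 reads in treatment replicates 1 to 3 and 1188, 1783 and 1562 reads in control replicates 1 to 3. Scaled to library size, its level was 145.7, 143.2 and 147.1 CPM in the treatment libraries, against 106.1, 114.3 and 106.4 CPM in the control libraries. The treatment libraries were close to one another and stood well clear of the control libraries, with a gap of 29.0 CPM between the lowest treatment library and the highest control library. The mean was 145.3 ± 1.96 CPM in treatment and 108.9 ± 4.63 CPM in control (SD, n = 3 each), a log2 fold change of 0.42 (SE 0.05, 95% confidence interval 0.32 to 0.51, adjusted p = 5.15e-09). On the fold scale that interval runs from 1.25 to 1.42. Of all genes tested, 12.9% had a larger log2 fold change than Gli, and among the genes called higher in treatment 45.3% rose by more. Gli lies on the minus strand of chromosome arm 2L, from 15756001 to 15762755 in the build of the deposited table, which is not named.

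The level of bark was 72.5, 69.6 and 77.0 CPM in the treatment libraries, against 53.6, 64.9 and 65.1 CPM in the control libraries. Its reads numbered 1420, 710 and 908 in treatment and 600, 1013 and 955 in control. Control replicate 1 was the lowest library, and the gap between the lowest treatment library and the highest control library was 4.55 CPM, so the sets came close without overlapping. The mean was 73.1 ± 3.74 CPM in treatment and 61.2 ± 6.59 CPM in control (SD, n = 3 each), with a log2 fold change of 0.25 (SE 0.06, 95% confidence interval 0.12 to 0.38, adjusted p = 0.00152). Without control replicate 1 the log2 fold change was 0.16 (adjusted p = 0.0436 by edgeR). A larger log2 fold change was found in 23.2% of all genes tested. bark lies on the plus strand of 2L, from 3790663 to 3802245 in the same deposited build.

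M6 stood at 69.4, 67.8 and 68.5 CPM in the treatment libraries, against 60.1, 60.2 and 56.2 CPM in the control libraries. The underlying reads were 1358, 692 and 807 in treatment and 673, 939 and 825 in control. Spread among the treatment libraries was again small, and the sets were separated by 7.67 CPM. The mean was 68.6 ± 0.762 CPM in treatment and 58.8 ± 2.27 CPM in control (SD, n = 3 each), with a log2 fold change of 0.22 (SE 0.06, 95% confidence interval 0.11 to 0.34, adjusted p = 0.00120). A larger log2 fold change was found in 25.4% of all genes tested. The gene is on the plus strand of chromosome arm 3L, and its most-read transcript spans 21502981 to 21505849 in the deposited build.

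**Figure D1:**
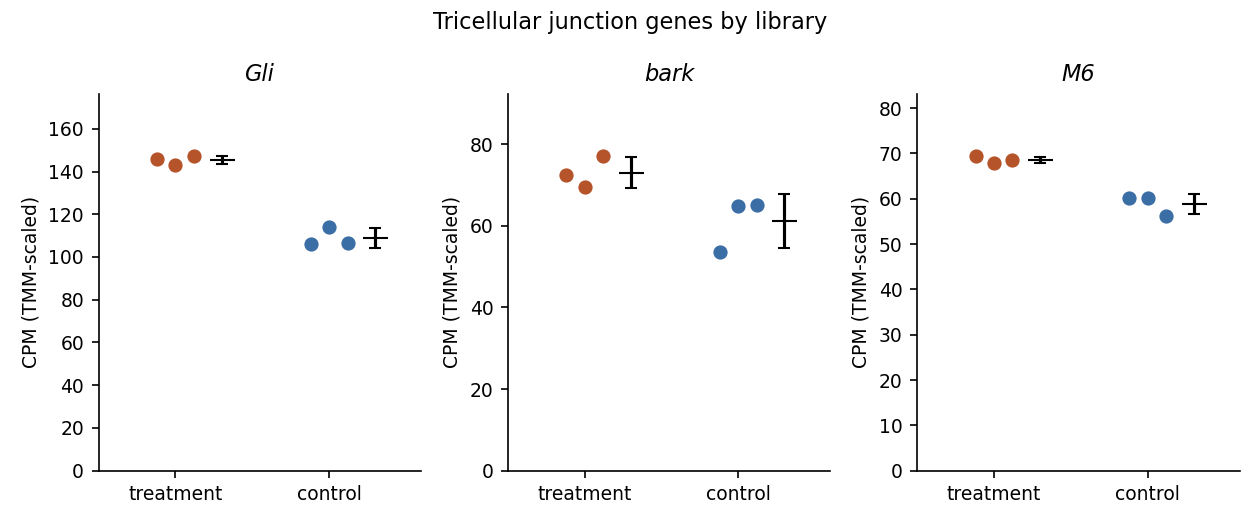
Level of Gli, bark and M6 in each library, in TMM-scaled CPM on a linear axis from 0, with treatment left of control. Points are the 3 libraries of a set in replicate order, and the line with bars is their mean ± SD. In each gene all treatment points lie above all control points, with the smallest gap, 4.55 CPM, in bark.

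The spread between libraries of one set can be set beside the counting error that the read numbers alone would give. For Gli the coefficient of variation was 1.35% in treatment and 4.25% in control, where counting error gives 2.32% in treatment and 2.61% in control. For M6 it was 1.11% in treatment and 3.86% in control, against 3.38% and 3.54% from counting. In treatment the coefficients of Gli and M6 thus lay below counting error, and in control above it. Each coefficient rests on only 3 libraries, and its difference from counting error was not tested. For bark it was 5.12% in treatment and 10.8% in control, against 3.27% and 3.51% from counting, which made bark the most variable of the 3 genes in both sets.

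The direction and the call of all 3 genes held under each of the 12 alternatives tried, and under a further one for M6. The size did depend on scaling. With libraries scaled by their total reads alone, the log2 fold changes were 0.62 for Gli, 0.45 for bark and 0.43 for M6, while the median over all genes tested moved to 0.22 from 0.01 with TMM. Relative to the median gene the 3 genes were 0.40, 0.23 and 0.21 higher with total reads, and 0.40, 0.24 and 0.21 higher with TMM. In the authors' deposited table the log2 fold changes, whose direction the column descriptions do not state, are 0.40 for Gli (adjusted p = 1.41e-18), 0.24 for bark (adjusted p = 0.0113) and 0.23 for M6 (adjusted p = 0.000467), with the sign of treatment over control.

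**Figure D2:**
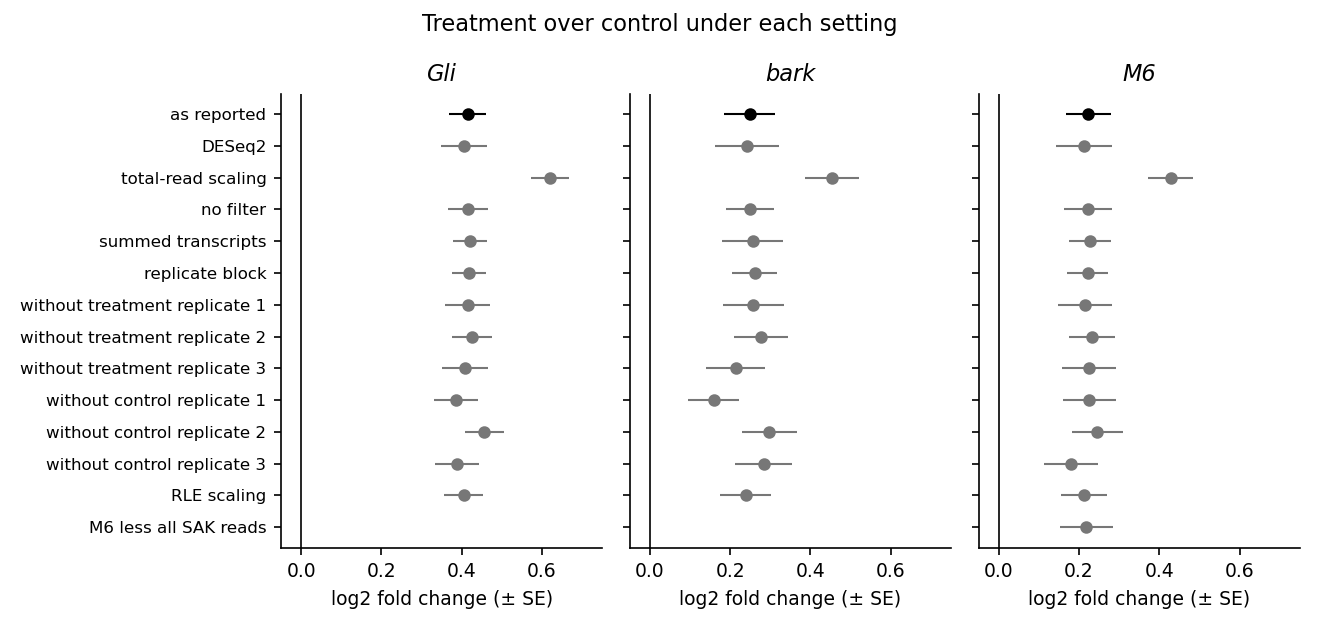
Log2 fold change of Gli, bark and M6, treatment over control, under each alternative, with bars of 1 SE. Black points are the reported values and grey points the alternatives, each of which lies above 0, with total-read scaling the farthest right for every gene.

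Levels can be compared between genes only per length. Per kilobase of the transcript used, Gli stood at 35.5 ± 0.478 CPM in treatment and 26.6 ± 1.13 CPM in control, and M6 at 35.2 ± 0.392 CPM in treatment and 30.2 ± 1.17 CPM in control (SD, n = 3 each). For bark the level per kilobase was 7.81 ± 0.400 CPM in treatment and 6.54 ± 0.705 CPM in control. The order in treatment was Gli, M6 and bark, where the libraries of Gli (35.0 to 35.9 CPM per kilobase) and M6 (34.9 to 35.7 CPM per kilobase) overlapped. In control the order was M6, Gli and bark, and the libraries of M6 (28.9 to 30.9 CPM per kilobase) lay above those of Gli (25.9 to 27.9 CPM per kilobase). The M6 counts may hold reads of SAK, a gene that overlaps M6, as described below. The order of M6 and Gli therefore holds only for the counts as deposited. Among all genes tested, Gli ranked at percentile 75.8 to 76.5 in treatment and 70.7 to 72.2 in control by level per kilobase. M6 ranked at 75.8 to 76.2 in treatment and 72.7 to 73.9 in control, and bark at 41.7 to 44.0 in treatment and 35.3 to 39.9 in control. Gli and M6 were thus in the upper part of the expressed genes and bark below the middle in both sets.

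Ratios between members within a library do not depend on how libraries are scaled, and were used to ask whether the genes changed by different amounts. The ratio of Gli to M6, in reads per kilobase, was 0.998, 1.003 and 1.02 in the treatment libraries, against 0.839, 0.902 and 0.900 in the control libraries. The sets did not overlap, and the ratio was 1.15-fold higher in treatment (difference 0.20 on the log2 scale, exact two-sided permutation p = 0.1, adjusted p = 0.3 over 3 ratios). With 3 libraries against 3, 0.1 is the smallest p that this exact test can give, so it cannot pass 0.05.

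Gli over bark was 4.59, 4.70 and 4.36 in the treatment libraries, against 4.52, 4.02 and 3.74 in the control libraries. Control replicate 1 lay within the treatment range, so the sets overlapped (difference 0.16 on the log2 scale, exact permutation p = 0.2, adjusted p = 0.3). bark over M6 was 0.218, 0.213 and 0.234 in treatment and 0.185, 0.224 and 0.241 in control, where the control libraries spanned the treatment libraries (difference 0.04, exact permutation p = 0.9, adjusted p = 0.9). With each library left out in turn the difference lay between 0.16 and 0.21 for Gli over M6, between 0.09 and 0.23 for Gli over bark, and between -0.07 and 0.12 for bark over M6.

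**Figure D3:**
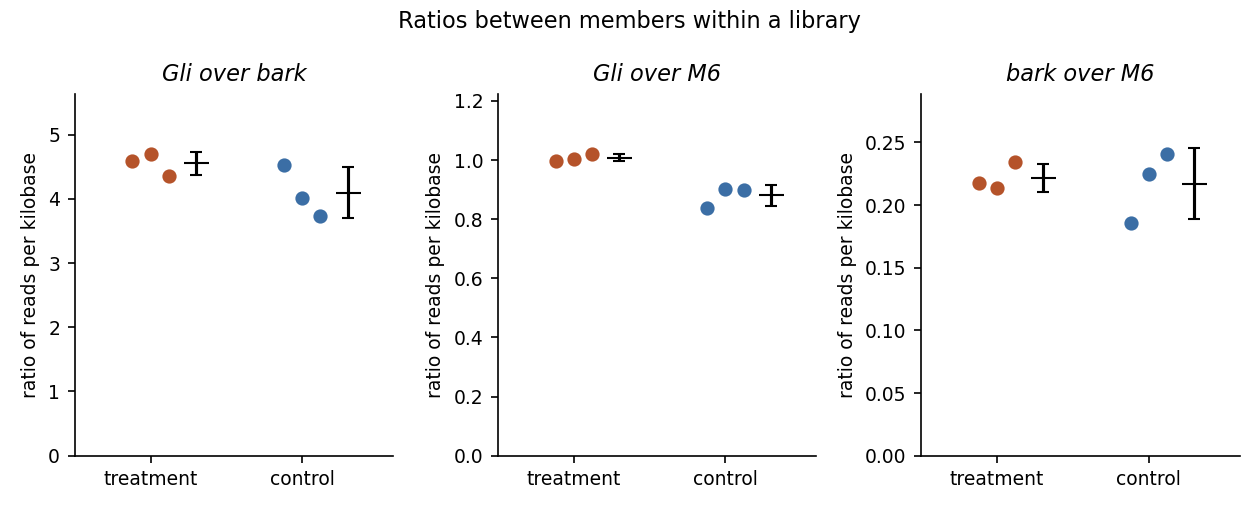
Ratio of reads per kilobase between each pair of members in each library, on linear axes from 0, treatment left of control, with the mean ± SD of each set beside its 3 points. The sets are separate for Gli over M6 and overlap for the other two ratios.

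Isoforms were compared next. The 5 deposited Gli transcripts are 3787 to 4184 bases long with 6 to 9 exons, and reads that fall in shared exons are listed under each of them. The least-read Gli transcript therefore held between 96.5% and 97.6% of what the most-read one had, the 8-exon transcript of 4093 bases. Its share of the summed Gli reads was 20.2% in every library (exact permutation p = 0.8, adjusted p = 0.9). The 4093-base transcript had 19, 13 and 10 reads in treatment, and 10, 14 and 5 reads in control, more than the 3973-base transcript. The 4184-base transcript exceeded the 3973-base transcript by 1, 0 and 0 reads in treatment and by 0, 2 and 2 reads in control. The largest net difference was that of the 4093-base over the 3787-base transcript, with 172 reads in treatment and 135 in control, or 2.84% of the reads of the 4093-base transcript in treatment and 2.98% in control. Because the 5 transcripts list nearly the same reads, their shares can hardly move, and the exact test cannot pass 0.05 with 3 libraries against 3. A shift in Gli isoform use could therefore not be detected this way. In the Ensembl release 115 annotation of the BDGP6 assembly the 5 Gli transcripts listed all encode 1 and the same protein of 956 residues and differ outside the coding part. They do not match the deposited ones in every length, and none of them has 6 exons.

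The 2 deposited M6 transcripts are a 4-exon transcript of 1945 bases and a 5-exon transcript of 2164 bases that starts farther upstream, at 21500952. The shorter one held 52.0%, 51.9% and 52.1% of the summed M6 reads in the treatment libraries, against 52.2%, 51.9% and 52.0% in the control libraries (exact permutation p = 0.9, adjusted p = 0.9). It exceeded the 5-exon transcript by 103, 51 and 65 reads in treatment and by 57, 69 and 62 reads in control. That net excess was 7.67% of its reads in treatment and 7.71% in control. Per library the 5-exon transcript held 91.5% to 92.7% as many reads as the shorter one. Since the transcripts share most of their reads, this share could hardly move either, and the same limit of the exact test holds. A shift in M6 isoform use could therefore not be detected this way. In the annotation, M6-RB has the length and exon number of the shorter transcript. It has 187 bases that the 5-exon M6-RC lacks, none of them coding, and M6-RC has 416 bases of its own. Which annotated transcript the deposited 5-exon one stands for is uncertain, since M6-RC has 2174 bases and another 5-exon transcript, M6-RE, has 2157. Annotated M6 transcripts number 6 and encode proteins of 187 to 368 residues, and those of bark number 3 and encode proteins of 3115 or 3123 residues. The deposited table has 1 transcript for bark, of 9348 bases and 11 exons, and bark isoforms were not analysed here.

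**Figure D4:**
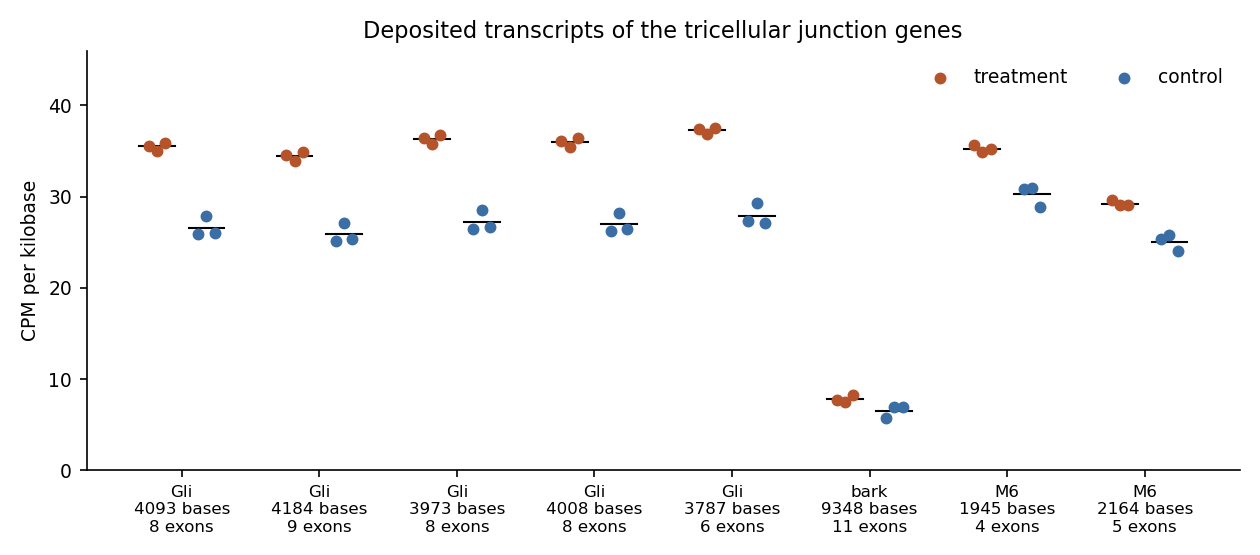
Level of each deposited transcript of Gli, bark and M6 in each library, in CPM per kilobase, with treatment left of control for each transcript and a line at the mean of 3 libraries. Transcripts of a gene share most of their reads, and every transcript shows all treatment points above all control points.

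M6 is the one member whose reads cannot be assigned to it alone. In the annotation its 3′ end overlaps SAK, a gene on the opposite strand that encodes a polo-like kinase needed to form centrioles, over 609 of the 1945 exonic bases of M6-RB, none of them coding in M6. Gli and bark overlap no other annotated gene. Whether the library kit marked strand is not given in the sources used here, so reads of M6 and SAK in the overlap cannot be told apart. SAK itself was at 23.8 ± 2.23 CPM in treatment and 20.3 ± 1.03 CPM in control (SD, n = 3 each, log2 fold change 0.23, adjusted p = 0.0138), and its adjusted p was 0.109 with DESeq2, 0.114 without treatment replicate 3 and 0.0835 without control replicate 3. With all reads of SAK subtracted from those of M6, a setting chosen after the data were seen, the log2 fold change of M6 was 0.22 (adjusted p = 0.00629 by edgeR). The level of M6 per kilobase, its percentiles and the ratios that include M6 were not recomputed in this way.

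The smooth septate junction is the belt between gut cells that the tricellular junction adjoins. All 4 of its genes tested rose, against 25.0% of all genes. Their median log2 fold change was 0.49, against 0.01 over all genes tested. They encode membrane proteins that depend on one another for their place in the junction. Ssk was at 1216 ± 45.8 CPM in treatment and 938.2 ± 29.0 CPM in control (log2 0.37, adjusted p = 3.04e-08). The log2 fold change was 0.46 for mesh (adjusted p = 6.31e-10), 0.52 for Tsp2A (adjusted p = 9.90e-12) and 0.61 for hoka (adjusted p = 1.30e-13). The log2 fold change of Gli lay between those of Ssk and mesh, and those of bark and M6 lay below all 4.

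Within a library, the level of each tricellular gene was also set against the summed level of these 4 genes, both in reads per kilobase. M6 came to 0.891%, 0.842% and 0.843% of that sum in the treatment libraries, against 1.06%, 1.05% and 1.003% in the control libraries. The sets did not overlap (log2 difference -0.27, exact permutation p = 0.1, adjusted p = 0.2 over 3 ratios). Gli came to 0.889%, 0.844% and 0.861% in treatment and 0.886%, 0.949% and 0.903% in control, and bark to 0.194%, 0.180% and 0.197% in treatment and 0.196%, 0.236% and 0.242% in control. For both the sets overlapped (exact permutation p = 0.2 for each, adjusted p = 0.2). This comparison was added after the data were seen.

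Many septate junction proteins are shared with other epithelia. Against 25.0% of all genes tested, 6 of 19 membrane proteins and scaffolds of the septate junction core rose. Of the 19, 0 fell and 13 did not pass, with a median log2 fold change of 0.06. With total-read scaling 12 of the 19 rose, where 50.7% of all genes tested did so. The 4 with the smallest adjusted p were Nrg, an L1-type adhesion protein (log2 0.87), cora, a scaffold of the band 4.1 family (0.35), l(2)gl, a polarity protein (0.26), and nrv2, a beta subunit of the sodium pump (0.81). dlg1, the Discs large scaffold known to act together with Gliotactin, was at 30.4 ± 1.23 CPM in treatment and 28.9 ± 3.94 CPM in control (log2 0.09, adjusted p = 0.402). With total-read scaling its log2 fold change was 0.29 (adjusted p = 0.00342), and without control replicate 2 it was -0.027 (adjusted p = 0.815). Of 7 genes of septate junction assembly, 6 were tested and 0 fell (median log2 0.02). Where 25.0% of all genes tested rose, 2 of the 6 did. These were wun2, a lipid phosphate phosphatase (0.38), and crok, a Ly6 protein (0.46), and the call of crok was lost with DESeq2 (adjusted p = 0.187) and when any library but treatment replicate 3 was left out (adjusted p = 0.0578 to 0.196).

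Adherens junction and polarity genes rose in 11 of 13 cases, against 25.0% of all genes tested, and fell in 0. Their median log2 fold change was 0.28. The 4 with the smallest adjusted p were pyd, the fly counterpart of the ZO scaffolds (0.55), aPKC, a polarity kinase (0.43), shg, which encodes E-cadherin (0.38), and p120ctn, a catenin (0.28). sdk encodes Sidekick, an immunoglobulin-type protein that marks the corner at the level of the adherens junction. It was at 9.74 ± 0.422 CPM in treatment and 7.96 ± 0.451 CPM in control (log2 0.30, adjusted p = 0.0269), but its adjusted p was 0.168 with DESeq2, 0.144 without treatment replicate 1, 0.0687 without control replicate 1 and 0.0848 without control replicate 2. The number of these genes that rose was 7 with DESeq2 (17.4% of all genes), and also 7 without treatment replicate 1 (22.5% of all genes) and without control replicate 1 (22.1% of all genes).

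Gli belongs by sequence to a family of cholinesterase-like proteins. Of 7 relatives listed, 2 had enough reads to be tested, and both fell, against 24.1% of all genes tested. Ace, which encodes acetylcholinesterase, was at 6.64 ± 1.23 CPM in treatment and 10.9 ± 0.567 CPM in control (log2 -0.77, adjusted p = 6.50e-06). Nrt, the adhesion protein neurotactin, was at 2.45 ± 0.976 CPM in treatment and 3.53 ± 0.226 CPM in control (log2 -0.52, adjusted p = 0.0495), and without treatment replicate 3 its log2 fold change was -0.27 (adjusted p = 0.317). The call of Nrt was also lost without control replicate 1 (adjusted p = 0.0694), without control replicate 2 (adjusted p = 0.129), with DESeq2 (adjusted p = 0.161) and with total-read scaling (adjusted p = 0.219). The 4 neuroligins (Nlg1 to Nlg4) and Glt were below the filter on low counts.

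Of the Src family kinases and their inhibitor Csk, 1 of 3 rose and 1 fell, where 25.0% of all genes rose and 24.1% fell. Src64B was at 2.87 ± 0.163 CPM in treatment and 1.43 ± 0.393 CPM in control (log2 0.96, adjusted p = 0.000947). Csk had a log2 fold change of -0.17 (adjusted p = 0.0305), and Src42A one of 0.06 (adjusted p = 0.489). The log2 fold change of Csk was 0.036 with total-read scaling, and its adjusted p was 0.0717 with DESeq2, 0.144 without treatment replicate 1, 0.0824 without treatment replicate 3 and 0.173 without control replicate 3.

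**Figure D5:**
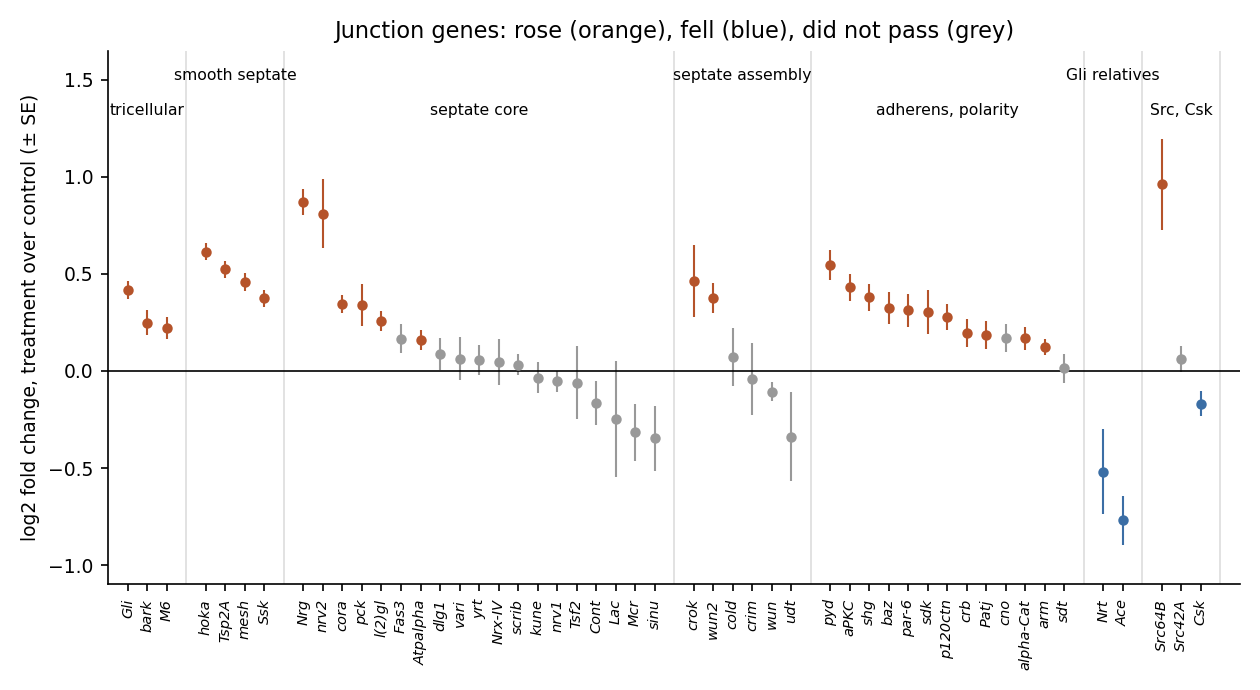
Log2 fold change of every junction gene tested, treatment over control, with bars of 1 SE, grouped by list and sorted within a list. Orange points rose, blue points fell and grey points did not pass edgeR's adjusted p of 0.05; all 3 tricellular and all 4 smooth septate genes are orange.

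Markers of the cell types in the tissue moved as well, and their part in the rise of Gli, bark and M6 was not tested. Enterocyte markers, which define the labelled tissue, were all expressed. Of 10, 4 rose and 5 fell, where 25.0% and 24.1% of all genes tested did. Total-read scaling gave 5 rises, where 50.7% of all genes rose, and 2 falls, where 1076 of 8137 genes fell. The summed level of these markers was 10856 to 11508 CPM in treatment and 11440 to 11744 CPM in control. Markers of intestinal stem cells and enteroblasts rose in 7 of 9 cases, where 25.0% of all genes tested rose (median log2 0.59 against 0.01 over all genes), with a summed level of 189 to 196 CPM in treatment and 125 to 126 CPM in control. Where 24.1% of all genes tested fell, 5 of 10 enteroendocrine markers fell and 0 rose (369 to 387 CPM in treatment and 513 to 549 CPM in control). Of the 11 visceral muscle markers tested 10 fell and 1 rose, where 24.1% and 25.0% of all genes tested did. Their summed level was 1257 to 1292 CPM in treatment and 2270 to 2433 CPM in control. With reads summed over transcripts, all 11 fell, a setting in which 1889 genes fell, against 1962 with the most-read transcript.

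Gli is also known from glia and bark from the trachea, and those cell types could be present in a dissected gut. The defining glial gene repo had 0 reads in each treatment library and 0, 1 and 1 reads in the control libraries. The astrocyte-like glial gene alrm had 2, 3 and 1 reads in treatment and 0, 1 and 0 reads in control. Of the 9 listed glial genes, 4 passed the filter on low counts. Against 25.0% of all genes tested 2 of these 4 rose, and against 24.1% 1 fell. Their sum was 361 to 375 CPM in treatment and 984 to 1021 CPM in control, most of it from Gs2, a glutamine synthetase that the gut also expresses. Of 6 tracheal markers tested 3 fell, against 24.1% of all genes, and 0 rose. Their summed level was 14.9 to 15.6 CPM in treatment and 17.4 to 21.4 CPM in control. With DESeq2 0 of the 6 fell, where 18.8% of all genes fell. Neuronal markers summed to 4.80 to 5.16 CPM in treatment and 3.33 to 5.72 CPM in control over 3 of 8 genes tested. Of these 3, 1 rose, against 25.0% of all genes tested.

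Genes with a like pattern were sought by the Pearson correlation of log2 CPM over the 6 libraries, which share the difference between the sets and are therefore described without a test. Nearest to Gli were the merged locus CG6370/CG14488 (r = 0.9995), Alh (r = 0.9994) and the merged locus CG14394/Past1 (r = 0.9985). Nearest to bark were Gnpat (r = 0.994), the amino acid transporter gene JhI-21 (r = 0.993) and the mucin gene Muc11A (r = 0.988). Nearest to M6 were mira (r = 0.999), Vps60 (r = 0.997) and CG4998 (r = 0.996). The correlation does not measure the size of a change. CG4998 had a log2 fold change of 2.14 (mean 2.15 CPM in treatment and 0.483 CPM in control). Muc11A had one of 0.66 (mean 1.47 CPM in treatment and 0.882 CPM in control). A correlation over 0.95 was found with 717 genes for Gli, 429 for M6 and 54 for bark, so the pattern of bark, with its low control replicate 1, was shared by the fewest genes.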

How the data were processed

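The authors deposited read counts per transcript, in whole numbers and with no normalization per the file headers, and a normalized signal, which divides them by transcript length and by the mapped total, per the file headers. Their second deposited table gives a log2 fold change and p-values per gene, with the mean of counts divided by size factors as a signal. The submitters' processing notes name DESeq. For the aligner, genome build and strand handling: not given in the sources used here. The labels count 3 biological replicates per age from pooled midguts, and p-values therefore cover the variation from pool to pool.

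Transcripts of 1 gene share reads, so the most-read transcript stood for each locus. Of 24047 transcripts, 145 predicted ones were left out, as were 7 of 13822 loci whose symbol was taken or missing. RefSeq symbols were matched by gene ID for 12819 genes. Counts were tested with edgeR 4.0.16 in R 4.3.3: TMM factors, a minimum count of 10 in filterByExpr, the quasi-likelihood test and Benjamini-Hochberg adjustment over 8137 genes at 0.05. DESeq2 1.42.0 was an alternative. All adjusted p-values per gene are from edgeR unless another tool or the authors' deposited table is named. The procedure was tested on simulated data in which few genes changed, as many up as down. That test does not cover a change as wide as the 49.2% of genes called here. Depth limits each level by counting error, given for the 3 genes.

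The 3 genes and the lists were chosen with earlier results of these data known, so no adjustment over a list is given. From each list up to 4 called genes of smallest adjusted p are named, and Ssk, mesh, Tsp2A, hoka, dlg1, sdk, pyd and Nrt always. Of the marker genes listed, Act57B, gcm and btl could not be matched by name and are not analysed here. Sequences are not shown.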

Additional observations from a re-analysis of the deposited data

How the results depend on the processing

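Gli, bark and M6 kept their direction and their call under DESeq2, total-read scaling, no filter, summed transcripts, the replicate block, each library left out in turn and, chosen after the data were seen, RLE scaling. The log2 fold change ranged from 0.39 to 0.62 for Gli, 0.16 to 0.45 for bark and 0.18 to 0.43 for M6, lowest without a control replicate (1 for Gli and bark, 3 for M6) and highest with total-read scaling. The highest adjusted p was 1.16e-06 for Gli, 0.0436 for bark and 0.0225 for M6. The log2 ratios between members were 0.16, 0.19 and 0.038 with summed transcripts (Gli over bark, Gli over M6, bark over M6) and 0.16, 0.20 and 0.039 with the deposited normalized signal. With a library left out, bark over M6 changed sign (-0.070 to 0.119), as did the differences in isoform share, from -0.0057 to 0.0105 percentage points for Gli and from -0.088 to 0.064 for M6.

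Values of other genes turned round: Csk was at 0.036 with total-read scaling (adjusted p = 0.647), and dlg1 at -0.027 without control replicate 2 (adjusted p = 0.815; up to 0.147 with other libraries left out), while dlg1 passed with total-read scaling (0.29, adjusted p = 0.00342). Total-read scaling also moved the median over all genes tested, to 0.22 from 0.01 with TMM. dlg1 was at 31.1, 24.4 and 31.3 CPM in control replicates 1 to 3, so the replicate left out was the lowest control library. Why that library was lower was not tested. Total-read scaling gave 4127 genes higher and 1076 lower, against 2038 and 1962 with TMM, and 12 rather than 6 rises among the septate junction core. Libraries of the same number did not deviate together (correlations 0.012, 0.085 and 0.016), so the replicate block rests on a shared number only. In that paired fit the log2 fold changes were 0.42 for Gli, 0.26 for bark and 0.22 for M6. The isoform comparison is limited by reads listed under several transcripts and by 3 libraries per set.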
